A study of Saccharomyces cerevisiae with 11 samples.

Results

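The respiratory chain and TCA cycle genes of budding yeast are described here across 11 Affymetrix arrays, 4 from cells expressing the human chloride channel CFTR and 7 from cells with an empty vector. The members were 44 listed genes: 10 enzyme genes of the TCA cycle, 4 of complex II, 9 of complex III, CYC1, 7 of complex IV, 11 of complex V, the NADH dehydrogenase gene NDI1 and the activator gene HAP4. Each of the 44 was matched by its symbol to 1 probe set, out of 5449 S. cerevisiae genes tested, and no member had more than 1 probe set, so that no choice between probe sets was needed. None was lost to a filter, since the main comparison used none.

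The CFTR cells carried the plasmid pRS426PPGK-CFTR-3HA, which places the tagged channel behind a PGK promoter, and the vector cells carried pRSGPD426, whose promoter is GPD. The plasmids therefore differ by more than the CFTR gene. All cultures were grown in selective medium at 26 degrees to mid log phase, and the strain is not given in the sources used here. The sample titles hold code numbers: 10, 7, 8 and 9 for CFTR replicates 1 to 4, then 3, 4 and 5 for vector replicates 1 to 3 and 11 to 14 for vector replicates 4 to 7. Replicate numbers stand in the vector titles only, and those of CFTR follow the order of the samples in the series. The titles also mark all 7 vector arrays, and no CFTR array, as re-analysed. What the codes stand for is not stated, and a condition that followed them cannot be told apart from CFTR.

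Yeast grown on glucose obtains most of its energy by fermentation and keeps respiration partly repressed. The TCA cycle oxidises acetyl groups and hands electrons to the respiratory chain, in which NDI1 takes the place of the multi-subunit complex I found in animals. Electrons pass through coenzyme Q and complex III to cytochrome c and complex IV, and the proton gradient so made drives the ATP synthase, complex V. Transcription of many of these genes is activated by the Hap2/3/4/5 complex, of which Hap4 is the regulated subunit, and several also need heme and oxygen through Hap1.

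Levels are log2 of the deposited probe set intensity, relative to the mean of the array. A difference is the log2 level in CFTR minus that in vector, unless another pair is named, and is given ± its standard error (SE) from limma. Levels of different genes come from different probe sets and are not compared with each other. In bulk RNA, fewer cells with a transcript and less of it per cell cannot be told apart. A few facts of the arrays touch the results. Vector replicates 1 and 2 had a higher median over tested genes (0.05 and 0.10) than the other 9 arrays (-0.32 to -0.24). They differed from each other by an SD of only 0.11 across genes. Vector replicates 5 and 7 differed by 0.10, and replicate 6 by 0.13 from replicate 5 and 0.12 from replicate 7, so that replicates 5 to 7 formed a close set. Taken over genes, which are not replicates of each other, the correlation of vector replicate 3 was 0.986 to 0.995 to each CFTR array, but 0.952 to 0.974 to each vector array, against its label. CFTR replicate 1 had 0.985 to 0.990 to the other CFTR arrays, 0.986 to vector replicate 3 and 0.958 to 0.981 to the other vector arrays, which goes with its label. No CFTR transcript was measured here that could check either label, so every CFTR minus vector value rests on the labels as given. No label links an array to a culture, and p-values therefore reflect only how far these arrays scatter, which may be technical.

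On the deposited scale the members moved together across the 11 arrays, but 1 array in each group stood apart from its own group. CFTR replicate 1 had the highest level of the 4 CFTR arrays in 43 of 44 members, the exception being LSC2, whereas it was the highest in 28.6% of all tested genes. The median member lay 0.56 higher in CFTR replicate 1 than in the mean of the other CFTR arrays, while the same median over all tested genes was -0.01. Vector replicate 3 was the lowest of the 7 vector arrays in 31 of 44 members, compared with 23.9% of all tested genes. Its median member lay at -0.41 relative to the mean of the other vector arrays, and the same median over all tested genes was -0.08.

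**Figure D1:**
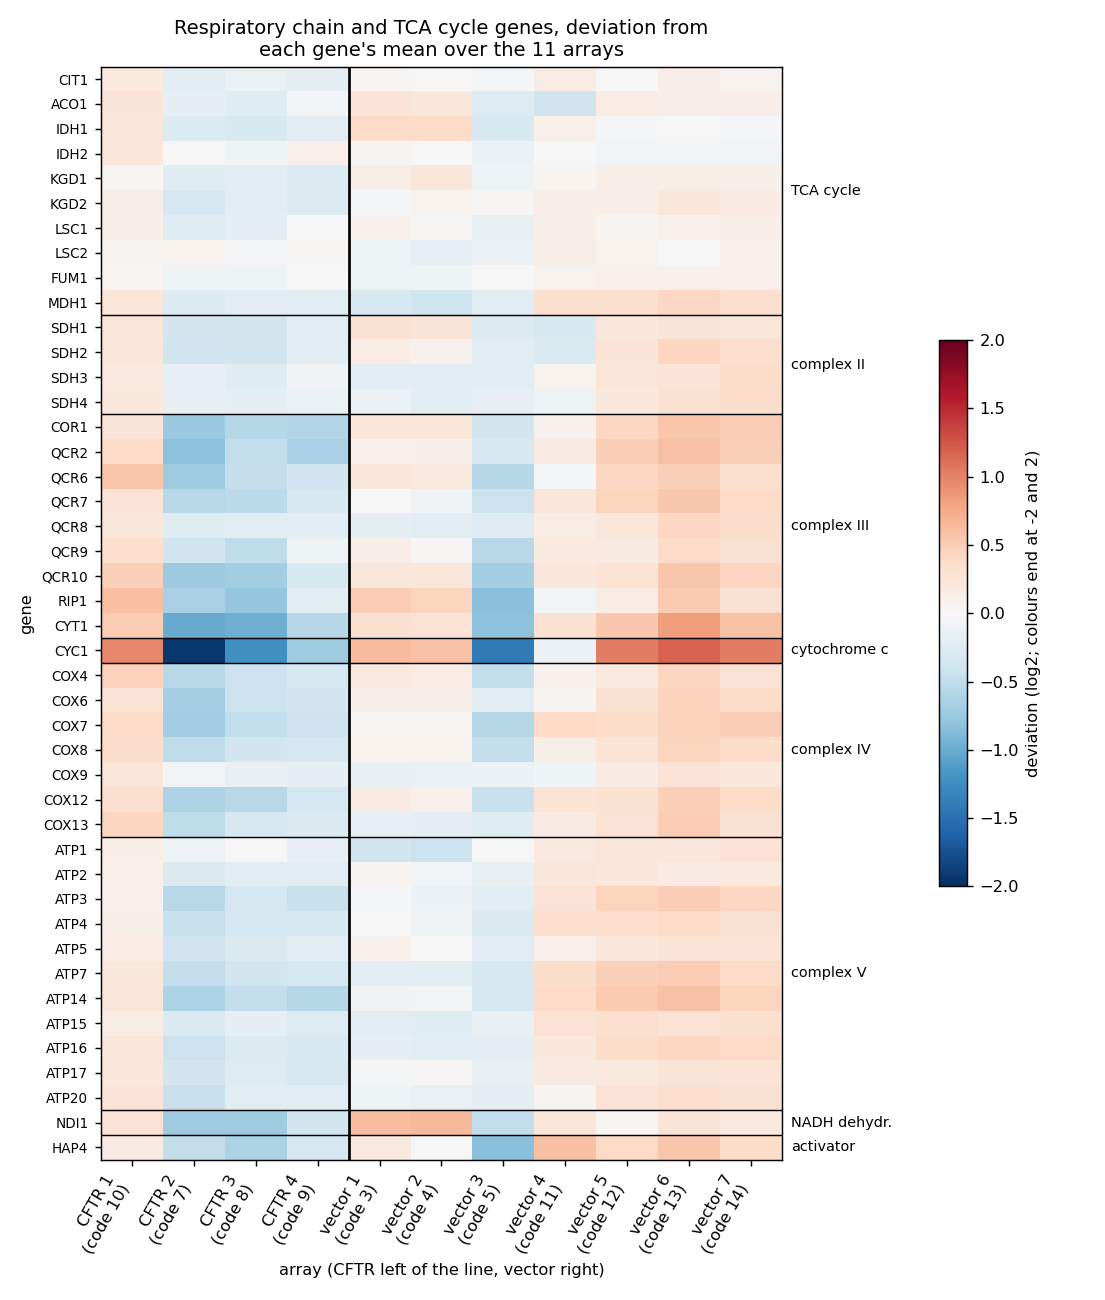
Deviation of each of the 44 genes (rows, by complex) from its own mean over the 11 arrays (columns, CFTR left of the heavy line and vector right), as a log2 colour scale. CFTR replicates 2 to 4 and vector replicate 3 are mostly blue (low), and CFTR replicate 1 and vector replicates 4 to 7 mostly red (high).

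CFTR replicates 2, 3 and 4 were below the gene's own median over arrays in 41, 44 and 40 of 44 members, compared with 37.1%, 43.9% and 51.2% of all tested genes. CFTR replicate 1 was below that median in 1 member and 44.1% of all genes. Vector replicate 3 was below it in 40 members and 52.2% of all genes. Vector replicates 1 and 2 were below it in 14 and 24 members (27.7% and 26.3% of all genes), and vector replicates 4 to 7 in 9, 4, 2 and 1 members (50.7% to 58.9% of all genes). In order of the codes, the mean deviation over members was 0.06, 0.03 and -0.33 at codes 3, 4 and 5 (vector), -0.45, -0.37, -0.28 and 0.27 at codes 7 to 10 (CFTR), and 0.13, 0.27, 0.37 and 0.31 at codes 11 to 14 (vector). The same mean over all tested genes was 0.18 and 0.20 at codes 3 and 4, and between -0.06 and -0.01 at the other codes. On this scale the low values sat at code 5 (vector) and codes 7, 8 and 9 (CFTR). With each array centred on its median, the mean over members was -0.21, -0.29 and -0.24 at codes 3 to 5, -0.43, -0.33, -0.20 and 0.30 at codes 7 to 10, and 0.19, 0.36, 0.43 and 0.41 at codes 11 to 14. Whether codes 3 and 4 count among the low arrays thus depends on the scaling. So does whether vector replicate 3 (code 5) stands apart, since after centring it lay between vector replicates 1 and 2.

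CYC1, which encodes the main isoform of cytochrome c, varied most. It stood at 2.86, -0.03, 0.68 and 1.18 in CFTR replicates 1 to 4. The vector arrays had a lowest level of 0.49 in replicate 3, a median of 2.53 and a highest of 3.08. The groups overlapped, since CFTR replicate 1 lay within the upper vector arrays and vector replicate 3 among the low CFTR ones. The level of CYC1 averaged 1.17 ± 1.23 (SD, n = 4) for CFTR, against 2.31 ± 0.91 (SD, n = 7) for vector. The difference, -1.14 ± 0.56, did not pass (limma, adjusted p = 0.305). Its range over the arrays, 3.11, compares with a median range of 0.69 over all tested genes and 0.83 over the members.

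HAP4 followed the same arrays. Its levels were 0.94, 0.30, 0.15 and 0.43 in CFTR replicates 1 to 4, against a lowest of -0.06 in vector replicate 3, a median of 1.14 and a highest of 1.37 in the vector arrays. The groups overlapped through the same replicates as in CYC1. The HAP4 difference was -0.50 ± 0.25 (limma, adjusted p = 0.31).

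NDI1, the internal NADH dehydrogenase, had levels of 0.72, -0.29, -0.28 and 0.05 in CFTR replicates 1 to 4. In the vector arrays its lowest level was -0.07, again in replicate 3, with a median of 0.66 and a highest of 1.07. Here vector replicates 1 and 2 were the highest of all arrays, at 1.04 and 1.07, which was not so in HAP4 or any complex V gene. The NDI1 difference was -0.59 ± 0.23 (limma, adjusted p = 0.212).

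**Figure D2:**
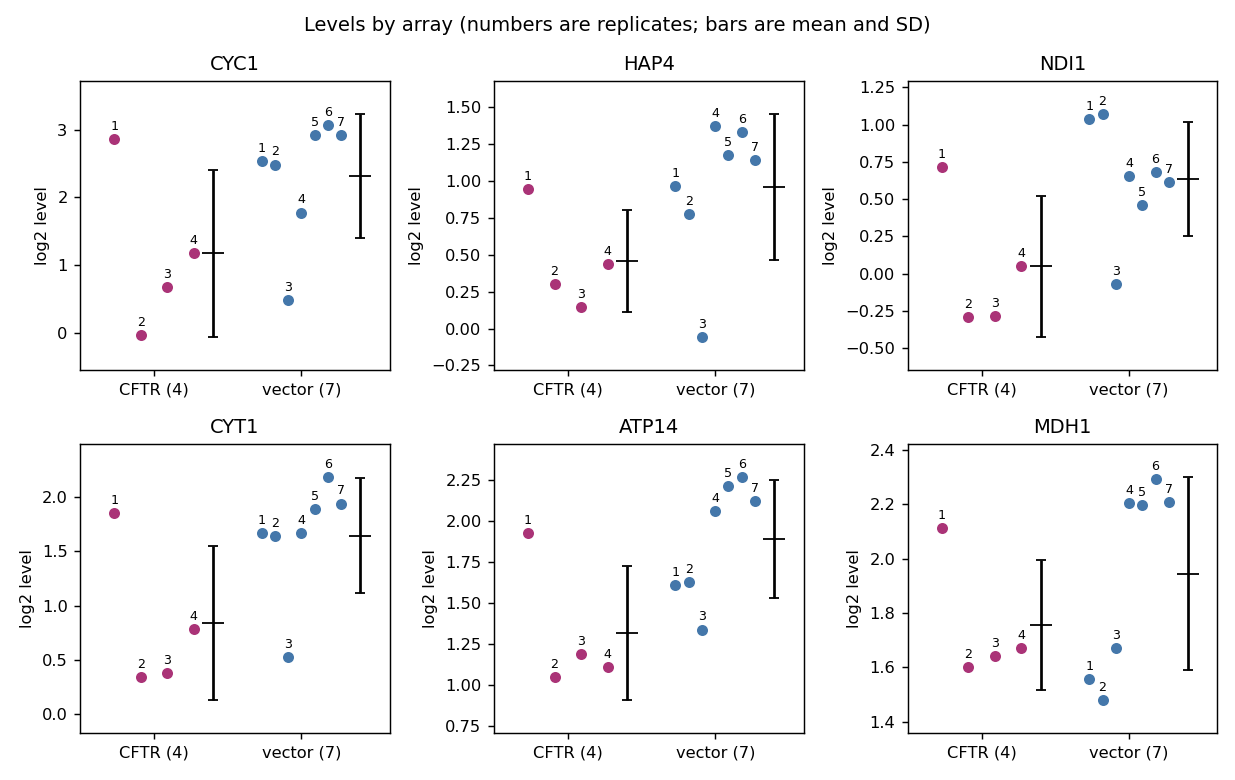
log2 level of CYC1, HAP4, NDI1, CYT1, ATP14 and MDH1 in each array (points numbered by replicate), for 4 CFTR arrays on the left and 7 vector arrays on the right of each panel, with mean and SD. In each panel CFTR replicate 1 is far above the other CFTR points, and vector replicate 3 is the lowest vector point in all but MDH1.

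The comparison of CFTR with vector asks how the yeast transcriptome differs when a foreign membrane protein is made. No member passed the test with all 11 arrays: 0 of 44 rose and 0 fell, while 0.918% of all tested genes were called, 0.496% higher and 0.422% lower (limma, adjusted p under 0.05). At an unadjusted p under 0.05 there were 15 of 44 members, and 18.2% of all tested genes. The difference was below 0 in 42 of 44 members, the exceptions being IDH2 (0.09) and LSC2 (0.04), and in 57.8% of all tested genes. The median over members was -0.29, and over all tested genes -0.04. No member had CFTR arrays wholly above or wholly below the vector arrays, where 2.40% of all genes lay wholly above and 3.34% wholly below.

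By complex, the median difference was -0.13 for the TCA cycle, -0.20 for complex II, -0.43 for complex III, -0.34 for complex IV and -0.29 for complex V. These differences between complexes are descriptions of the chosen lists and were not tested. Without CFTR replicate 1 the median over members was -0.44, and the corresponding medians were -0.21, -0.31, -0.70, -0.56 and -0.42, with no member passing and 0.0367% of all genes called. No member passed either without CFTR replicate 2 or 4, or vector replicate 5 or 7, where 0.0734% of all genes were called. Nor did one pass without CFTR replicate 3 (0.147%) or vector replicate 1, 2, 4 or 6 (0.440%, 0.624%, 0.312% and 0.184% of all genes). Without vector replicate 3, 5 members fell, KGD1, COR1, CYT1, ATP3 and HAP4, in a fit that called 9.56% of all genes; removing the array with the low vector levels widens the difference by construction. With limma's array weights 42 of 44 members fell, but 60.7% of all genes were then called, with weights of 0.07 to 0.40 for vector replicates 1 to 4 and 0.96 to 5.51 for the other arrays.

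**Figure D3:**
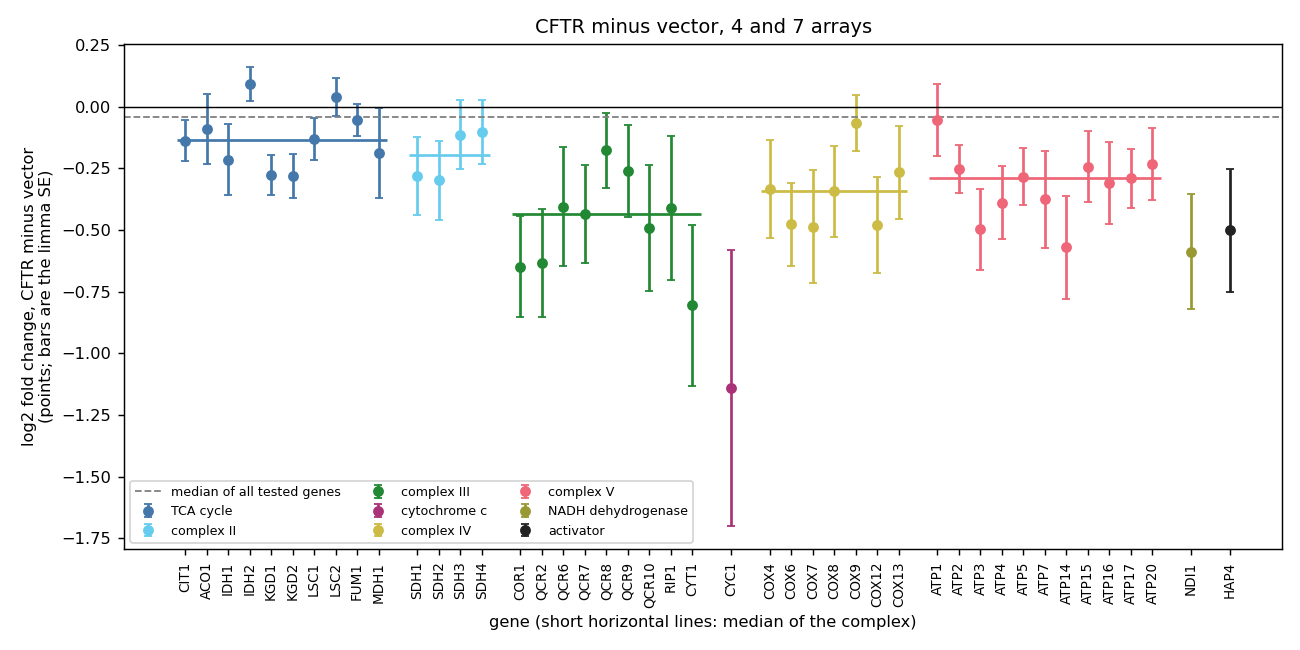
log2 fold change of CFTR minus vector (4 and 7 arrays) for each gene, coloured by complex, with the limma SE as bars, short lines at the median of a complex and a dashed line at the median of all tested genes (-0.04). CYC1 (-1.14) and CYT1 (-0.80) lie lowest, and IDH2 and LSC2 lie above 0.

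The TCA cycle genes varied least, with a median range over the arrays of 0.45 compared with 1.29 in complex III. None of the 10 had a range over 1 across the arrays, compared with 22.2% of all tested genes and 17 of 44 members. The largest differences were in KGD1 and KGD2, whose products are subunits of 2-oxoglutarate dehydrogenase. KGD2 stood at 1.78, 1.33, 1.43 and 1.39 in CFTR replicates 1 to 4, against 1.64 to 1.89 in the vector arrays (median 1.79), with overlap only through CFTR replicate 1. The difference was -0.28 ± 0.09 in KGD2 (limma, adjusted p = 0.135) and -0.28 ± 0.08 in KGD1 (adjusted p = 0.118, the lowest of any member). LSC2, a subunit of succinyl-CoA ligase, had one of the smallest, 0.04 ± 0.08, with levels of 1.13 to 1.23 in CFTR arrays and a median of 1.16 in vector arrays.

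The other TCA cycle genes differed by less than the KGD genes. LSC1, the partner subunit of LSC2, had a difference of -0.13 ± 0.08, and the citrate synthase gene CIT1 had -0.14 ± 0.08. The subunit genes of NAD-dependent isocitrate dehydrogenase differed in sign, with -0.21 ± 0.14 for IDH1 and 0.09 ± 0.07 for IDH2. FUM1, which encodes fumarase, had -0.05 ± 0.06, and this turned to 0.02 after median centring. ACO1, the iron-sulfur enzyme aconitase, had -0.09 ± 0.14, which turned to 0.01 with vector replicates 5 to 7 (and 1 and 2) averaged. ACO1 was at 2.82, 2.37, 2.32 and 2.51 in CFTR replicates 1 to 4 and had its lowest level of all, 2.16, in vector replicate 4, against a vector median of 2.69. MDH1, the mitochondrial malate dehydrogenase, had -0.19 ± 0.18 and is the TCA gene that differed most between the vector code ranges, as described below.

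In complex II, succinate dehydrogenase, which belongs to the TCA cycle and the respiratory chain alike, the largest difference was in SDH2, the iron-sulfur subunit. SDH2 stood at 2.02, 1.37, 1.41 and 1.55 in CFTR replicates 1 to 4, against 1.48 to 2.20 in the vector arrays (median 1.92). The difference was -0.30 ± 0.16 (limma, adjusted p = 0.345). As for ACO1, vector replicate 4 had the lowest vector level in SDH2 (1.48) and in the flavoprotein gene SDH1 (1.45). The membrane anchor genes differed less, by -0.11 ± 0.14 for SDH3 and -0.10 ± 0.13 for SDH4. The levels of SDH4 were 1.83 to 2.23 in CFTR arrays, against 1.81 to 2.36 in vector arrays.

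Complex III, the cytochrome bc1 complex, had the largest median difference of the complexes, and 7 of its 9 genes had a range over 1 across the arrays. CYT1, which encodes cytochrome c1, stood at 1.86, 0.35, 0.38 and 0.78 in CFTR replicates 1 to 4. In the vector arrays CYT1 had a lowest level of 0.53 in replicate 3, a median of 1.67 and a highest of 2.18. The difference was -0.80 ± 0.33 (limma, adjusted p = 0.223). The genes of the core proteins had -0.65 ± 0.20 for COR1 and -0.63 ± 0.22 for QCR2.

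Among the smaller subunits of complex III the difference was -0.40 ± 0.24 for QCR6, -0.43 ± 0.20 for QCR7, -0.26 ± 0.19 for QCR9 and -0.49 ± 0.26 for QCR10. RIP1, the Rieske iron-sulfur protein, had -0.41 ± 0.29 and the second widest range of the complex: 2.47, 1.22, 1.10 and 1.64 in CFTR replicates 1 to 4, and 1.04 to 2.39 in the vector arrays (median 2.17). QCR8 differed least, at -0.18 ± 0.15. Its levels were 2.10 to 2.14 in CFTR replicates 2 to 4 and 2.57 in CFTR replicate 1, against 2.09 to 2.76 in vector arrays.

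Complex IV, cytochrome c oxidase, is represented by nuclear genes for its smaller subunits. COX7 stood at 2.15, 1.07, 1.27 and 1.35 in CFTR replicates 1 to 4, against a lowest of 1.19 in vector replicate 3, a median of 2.13 and a highest of 2.27 in the vector arrays. The difference was -0.49 ± 0.23 (limma, adjusted p = 0.288), close to those of COX6 (-0.48, SE 0.17) and COX12 (-0.48, SE 0.20). COX4, COX8 and COX13 had -0.33, -0.34 and -0.27. COX9 was the exception, at -0.07 ± 0.11, and turned to 0.01 after median centring.

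Complex V, the ATP synthase, had 11 of 11 differences below 0, and 6 of these had an unadjusted p under 0.05. Of all tested genes, 57.8% were below 0 and 18.2% had an unadjusted p under 0.05. ATP14, a peripheral subunit, stood at 1.92, 1.05, 1.19 and 1.11 in CFTR replicates 1 to 4, against 1.34 to 2.26 in the vector arrays (median 2.06). The ATP14 difference was -0.57 ± 0.21 (limma, adjusted p = 0.178). ATP3, the gamma subunit of the catalytic head, had -0.50 ± 0.16, and the genes of the delta and epsilon subunits, ATP16 and ATP15, had -0.31 ± 0.17 and -0.24 ± 0.14.

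Of the other head subunits, ATP2 (beta) had a difference of -0.25 ± 0.10. ATP1 (alpha) had -0.05 ± 0.15, which turned to 0.02 after median centring, and its levels in vector replicates 1 and 2, 2.88 and 2.82, were below all CFTR arrays (3.09 to 3.38). Of the stalk and membrane subunit genes, ATP4 had -0.39, ATP7 -0.37, ATP5 -0.28, ATP17 -0.29 and ATP20 -0.23.

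Since the vector arrays fall into codes 3 to 5 and 11 to 14, the members were also tested against each range, in 1 fit over all 11 arrays. Both comparisons share the CFTR arrays. Against vector codes 11 to 14, 23 of 44 members fell and none rose, while 22.8% of all tested genes were called, 8.99% lower and 13.8% higher. By complex, 3 of 10 genes of the TCA cycle fell, 1 of 4 in complex II, 5 of 9 in complex III, 3 of 7 in complex IV and 10 of 11 in complex V, and HAP4 fell as well. Against vector codes 3 to 5, 0 of 44 members rose or fell, while 0.752% of all tested genes were called (0.312% higher, 0.440% lower). At an unadjusted p under 0.05 there were 3 members against codes 3 to 5 and 31 against codes 11 to 14, and 41.7% and 36.2% of all tested genes.

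Against codes 11 to 14 the median over members was -0.46, and over all tested genes 0.04. Against codes 3 to 5 the median over members was -0.13 and lay near that of all tested genes, -0.15. After median centring, the comparison with codes 3 to 5 had a median of 0.09 over members and 0.07 over all tested genes, so that its sign depends on the scaling. By complex, the medians against codes 11 to 14 were -0.16, -0.30, -0.68, -0.52 and -0.46 for the TCA cycle and complexes II, III, IV and V. Against codes 3 to 5 they were -0.08, -0.05, -0.24, -0.15 and -0.11.

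Among the 23 genes that fell against codes 11 to 14, ATP3 had the lowest p, with a difference of -0.73 ± 0.12 (limma, adjusted p = 0.00216). HAP4 fell by 0.80 on the log2 scale (SE 0.22, adjusted p = 0.0228) and had no overlap between these groups. Against codes 3 to 5 the HAP4 difference was -0.11 (SE 0.23, adjusted p = 0.735). CYT1 fell by 1.08 (SE 0.34, adjusted p = 0.0411), whereas CYC1, at -1.50 with an SE of 0.62, did not pass (adjusted p = 0.103). Of the 44 members, 12 had CFTR arrays wholly below the arrays of codes 11 to 14, compared with 15.9% of all genes: 4 of the TCA cycle, 7 of complex V and HAP4. None lay wholly above, as 25.9% of all genes did. Against codes 3 to 5, LSC2 was the 1 member wholly above and none lay wholly below (5.03% of all genes, and 602 of 5449 or 11%).

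The count of 23 changed with single arrays. It was 36 without CFTR replicate 1, in a fit that called 22.0% of all genes, and 8, 9 and 9 without CFTR replicates 2, 3 and 4 (14.4%, 15.6% and 14.9% of all genes). Without vector replicates 5, 6 and 7 it was 12, 9 and 11 (14.8%, 15.9% and 15.4% of all genes). With the near-copy vector pairs (1 and 2, 5 and 7) each averaged to 1 sample it was 9, and 13.6% of all genes. With replicates 5 to 7 averaged to 1 sample, and 1 and 2 to another, no member passed, and 4.22% of all genes were called. This setting was chosen after seeing the data.

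**Figure D4:**
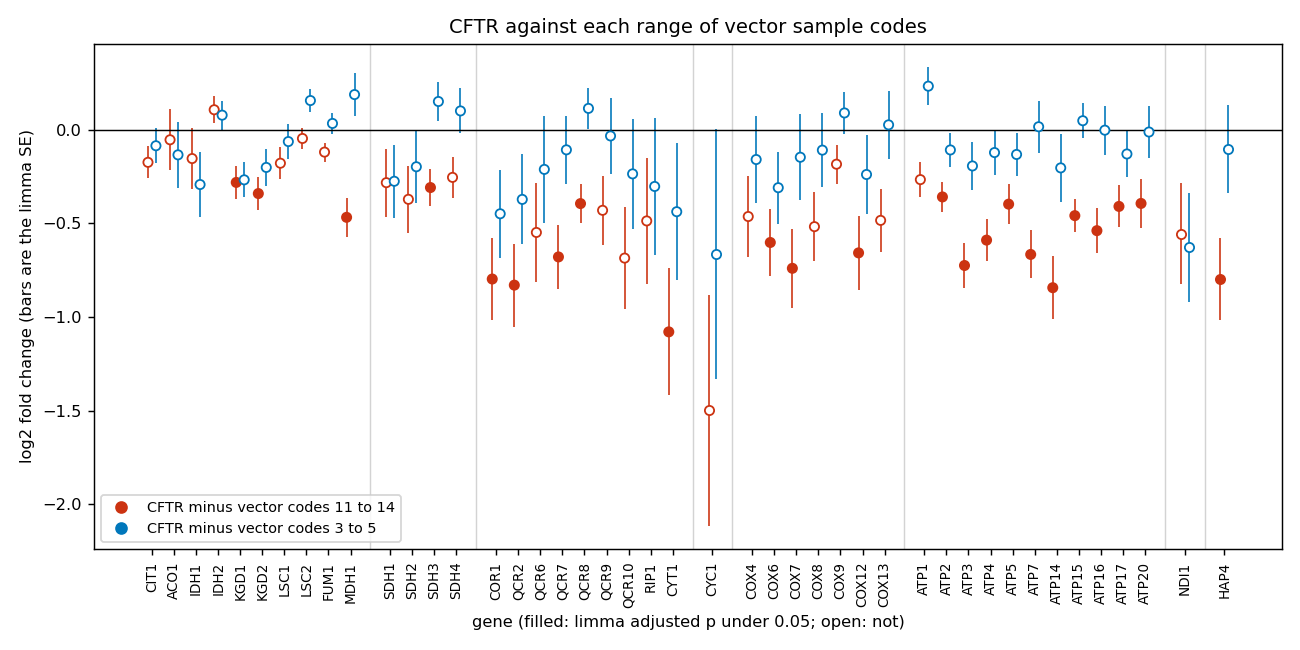
log2 fold change per gene of CFTR minus vector codes 11 to 14 (red, 4 against 4 arrays) and of CFTR minus vector codes 3 to 5 (blue, 4 against 3 arrays), with the limma SE as bars and filled points for an adjusted p under 0.05. Red points are filled for 23 genes, 10 of them in complex V, and no blue point is filled.

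The vector arrays alone differed between the code ranges with no CFTR in either group. In vector codes 11 to 14 compared with codes 3 to 5, 18 of 44 members rose and none fell, while 47.4% of all tested genes were called, 11.3% higher and 36.2% lower. At an unadjusted p under 0.05 there were 22 members, and 56.4% of all tested genes. The median difference, codes 11 to 14 minus 3 to 5, was 0.37 over members and -0.19 over all tested genes. Of the members, 27 lay wholly above codes 3 to 5 and none wholly below, which 10.8% and 27.8% of all tested genes did. Of complex V, 9 of 11 genes rose, and 11 of 11 lay wholly above. MDH1 rose by 0.66 on the log2 scale (SE 0.11, limma adjusted p = 0.00216), with levels of 2.20, 2.20, 2.29 and 2.21 at codes 11 to 14 and 1.56, 1.48 and 1.67 at codes 3 to 5.

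HAP4 rose by 0.69 (SE 0.23, adjusted p = 0.0332) in the same comparison. ATP1 rose by 0.50 (SE 0.10, adjusted p = 0.00459) and QCR8 by 0.51 (SE 0.11, adjusted p = 0.00595). By complex the medians were 0.10 for the TCA cycle, 0.26 for complex II, 0.45 for complex III, 0.41 for complex IV and 0.50 for complex V. NDI1 had -0.07 ± 0.29.

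In vector replicates 1 and 2 the mean deviation of complex III was 0.17 and 0.14, and that of complex V was -0.10 and -0.14, beside 0.18 and 0.20 over all tested genes. In vector replicate 3 complex III was at -0.53 and complex V at -0.20, beside -0.05 over all tested genes. After median centring, complex III was at -0.10 and -0.18 and complex V at -0.37 and -0.46 in vector replicates 1 and 2.

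The count of 18 also changed with single arrays. It was 10, 11, 11 and 10 without vector replicates 2, 5, 6 and 7, in fits that called 21.6%, 36.0%, 38.8% and 34.6% of all genes. Without vector replicate 3 it was 14, of which 13 rose and 1 fell, and 71% of all genes were called. The median over members was then 0.22. With median centring the count was 32, and 39.5% of all genes. With the near-copy pairs averaged it was 3, and 9.89% of all genes. With replicates 5 to 7 averaged as well, no member passed, and 1.67% of all genes were called.

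Other genes of the pathway were read from lists that hold none of the 44 members. With all 11 arrays none of them passed for CFTR minus vector, where 0.918% of all genes did. The assembly factors came closest to the members, with 36 of 41 differences below 0 (57.8% of all tested genes) and a median of -0.28. In that list OXA1, which inserts proteins into the inner membrane, had -0.43 ± 0.11 (limma, adjusted p = 0.0859), and CBP3, an assembly factor of complex III, had -0.64 ± 0.18 (adjusted p = 0.0987). Against vector codes 11 to 14, 10 of the 41 fell and 1 rose, where 8.99% of all tested genes were called lower and 13.8% higher. Against codes 3 to 5 none passed (0.752% of all genes), and 34 of 41 were below 0 (69.2% of all genes). The median there was -0.27, beside -0.13 over members and -0.15 over all genes. Between the vector code ranges 2 rose and 2 fell (11.3% and 36.2% of all genes). The median, codes 11 to 14 minus 3 to 5, was 0.11, beside 0.37 over members.

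The other lists had medians nearer to 0: -0.23 over 10 other subunits and isoforms, -0.10 over 17 other respiratory dehydrogenases and related genes, -0.10 over 18 glucose repression regulators and -0.08 over 20 mitochondrial carriers. HAP and oxygen regulators had -0.08 over 9 genes, pyruvate dehydrogenase and pyruvate import -0.05 over 12, and the glyoxylate cycle and isoenzymes -0.03 over 15. Coenzyme Q synthesis had 0.03 over 11 genes and heme synthesis 0.05 over 9. HAP2, a DNA-binding partner of Hap4, had a difference of -0.37 ± 0.10 (limma, adjusted p = 0.098), and MIG1, the glucose repressor, -0.59 ± 0.21 (adjusted p = 0.158). The other partner genes, named after their values were seen, had -0.08 ± 0.19 for HAP3 and -0.02 ± 0.11 for HAP5 (adjusted p = 0.858 and 0.941). Mean levels of HAP3 and HAP5 were under -1.17 in both groups, the 95th percentile of probe sets matched to no S. cerevisiae gene. Probe sets for the subunits encoded in mitochondrial DNA were not analysed here.

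Some subunits and carriers have a second gene that yeast is known to use at low oxygen, and these pairs were read by array. CYC7, the second isoform of cytochrome c, stood at 1.36, 1.05, 0.55 and 1.56 in CFTR replicates 1 to 4, against -0.93 to 0.76 in the vector arrays (median -0.64), of which replicate 3 was the highest. The CYC7 difference was 1.38 ± 0.34 (limma, adjusted p = 0.0784). Against vector codes 11 to 14 CYC7 rose by 1.92 (SE 0.20, adjusted p = 0.000134). Against codes 3 to 5 the CYC7 difference was 0.67, and no gene of its list passed (limma, lowest adjusted p = 0.0656). Vector codes 11 to 14 minus codes 3 to 5, with no CFTR in either group, gave -1.25 for CYC7. Unlike CYC1, CYC7 did not separate CFTR replicate 1 from the other CFTR arrays.

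COX5B, the hypoxic isoform of a complex IV subunit, stood at 0.47, 1.16, 0.90 and 1.19 in CFTR replicates 1 to 4, against a lowest of -0.10 and a median of 0.32 in the vector arrays. The highest vector array was replicate 3, which lay among CFTR replicates 2 to 4. The COX5B difference was 0.60 ± 0.21 (limma, adjusted p = 0.152). The aerobic partner COX5A, named after its values were seen, stood at 2.70, 1.46, 1.54 and 1.89 in CFTR replicates 1 to 4. In the vector arrays COX5A had its lowest level, 1.48, in replicate 3 and a median of 2.49. Within these isoforms, CFTR replicate 1 and vector replicate 3 again went against the rest of their groups.

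HEM13, the heme synthesis gene for coproporphyrinogen oxidase and known to be induced when oxygen or heme is short, split both groups. HEM13 stood at 1.12, 3.22, 3.09 and 3.22 in CFTR replicates 1 to 4. In the vector arrays it was lowest at 1.06, had a median of 1.31 and was highest at 3.25 in replicate 3, with no other above 2. The arrays near 3 were thus CFTR replicates 2 to 4 and vector replicate 3. On the deposited scale these arrays had the lowest means over members. After median centring, the means over members in vector replicates 1 and 2 (-0.21 and -0.29) were close to that in vector replicate 3 (-0.24). The HEM13 difference was 0.96 ± 0.47 (limma, adjusted p = 0.305). ROX1, of the listed HAP and oxygen regulators and named after its values were seen, did not keep CFTR replicates 2 to 4 together. ROX1 stood at 0.23, -0.36, -0.63 and 0.74 in CFTR replicates 1 to 4, against -0.51 in vector replicate 3 and a vector median of 0.50. UPC2, of the same list, did keep them together, at -1.05, 0.23, 0.06 and 0.15, with 0.14 in vector replicate 3. Oxygen and heme supply are not recorded in the labels, and their part in these values was not tested.

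NDE1, an external NADH dehydrogenase named here after its values were seen, ran the other way. It stood at 2.69, 0.29, 0.59 and 1.30 in CFTR replicates 1 to 4, against a lowest of 0.61 in vector replicate 3, a median of 2.42 and a highest of 2.80. AAC3, the anaerobic isoform of the ADP/ATP carrier and also named after its values were seen, stood at -1.22, 0.40, 0.16 and 0.20 in CFTR replicates 1 to 4. In the vector arrays AAC3 was at 0.38 in replicate 3 and between -1.53 and -0.31 elsewhere. The lower of these levels are under -1.17, the 95th percentile of probe sets matched to no S. cerevisiae gene, so their size is uncertain. The main isoform PET9 stood at 3.29, 2.69, 2.91 and 2.73 in CFTR replicates 1 to 4 and between 2.89 and 3.42 in the vector arrays.

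**Figure D5:**
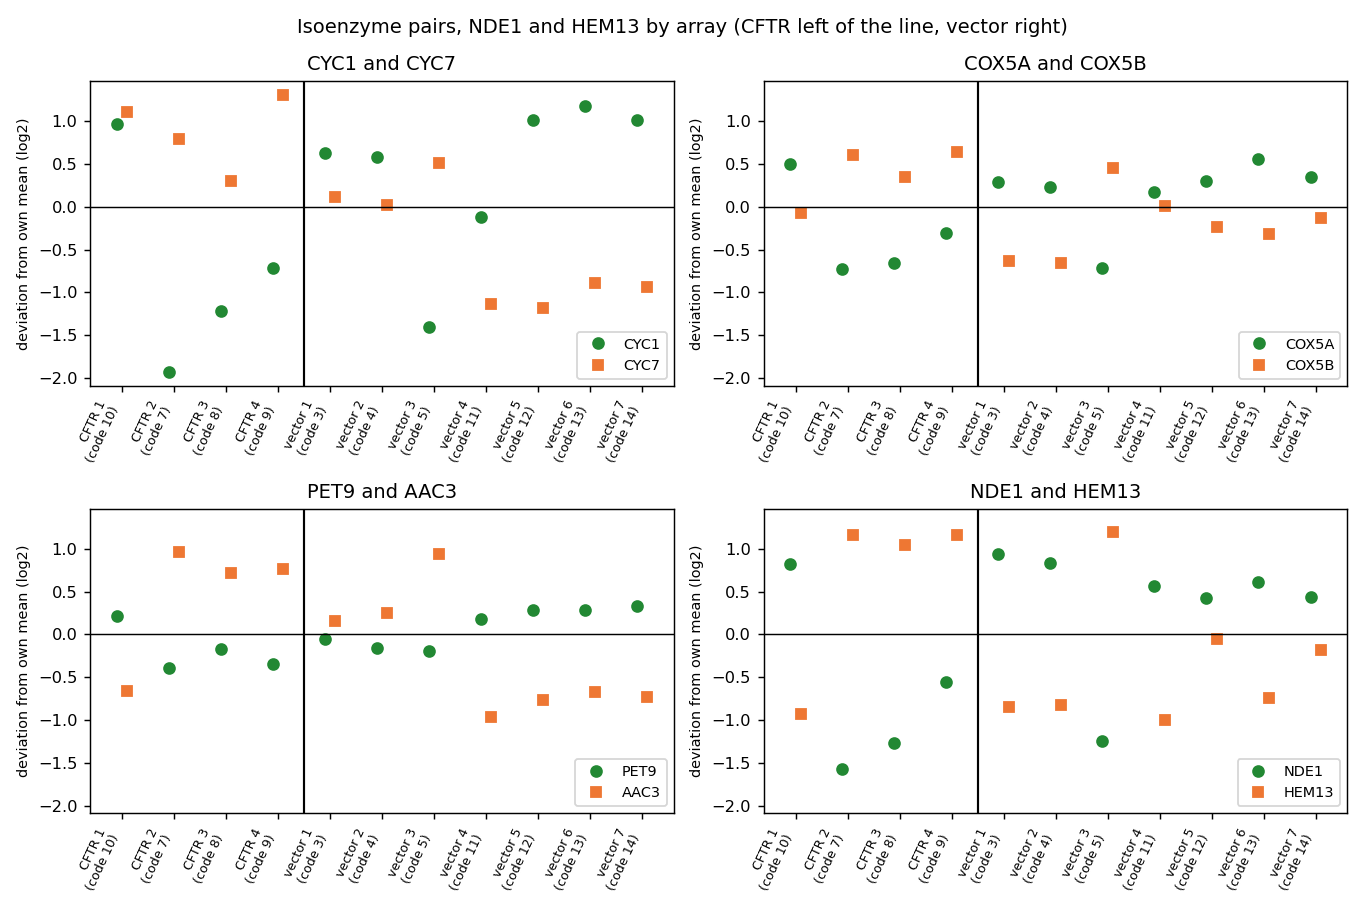
Deviation of CYC1 and CYC7, COX5A and COX5B, PET9 and AAC3, and NDE1 and HEM13 from each gene's own mean (log2), by array, with CFTR left of the line and vector right. CFTR replicates 2 to 4 and vector replicate 3 have low CYC1, COX5A and NDE1 beside high COX5B, AAC3 and HEM13, and CFTR replicate 1 has the reverse for these genes except COX5B, which is near its mean.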

How the data were processed

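Cells were harvested in mid log phase, and RNA from hot phenol was cleaned on columns, labelled with a 3' IVT Express kit and hybridised, per the labels' protocols. The authors deposited a table of linear intensity per probe set, in which each array averages 1 over 10715 probe sets. How background and probes were handled before deposit is not stated in the labels. Scaling to the mean hides any change in total RNA.

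Names came from the platform annotation and the R64 gene table: 5498 probe sets matched 1 S. cerevisiae gene, 1746 a gene outside that table, 1 several genes, and 3470 none. For 47 genes with several probe sets the brightest was kept, which left 5449 genes. Their log2 values entered limma 3.58.1 (R 4.3.3) with no floor or filter, using lmFit and then eBayes with a trend on mean level. Benjamini-Hochberg adjustment ran over all genes, at a threshold of 0.05. The vector code ranges and CFTR formed a fit of 3 groups. The fit was tested on simulated data, and plots used matplotlib 3.10.9 (Python 3.11.15).

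The members, lists and alternatives were chosen with earlier results of these data known. The text names members, up to 3 genes of each other list by smallest p, and genes marked there as chosen later. A planned list of mitochondrial ribosomal proteins was not used here. Alternatives varied the normalization (quantile, median centring), the eBayes step (no trend, robust), the weighting of arrays, the gene filter, the choice of probe set, the averaging of near-copy arrays, the groups in the fit and the arrays left out one by one. The number of arrays limits the precision.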

Additional observations from a re-analysis of the deposited data

Results flagged for a closer look

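Of 100 group-wise checks for an array far from the rest, 17 had a gap beyond Dixon's 95% critical value. The checks covered 44 genes and 6 list means in each of 2 groups, which overlap in their genes. The nominal rate is about 1 in 20 for a single check, but the members moved together across the arrays. No share over all tested genes is given for this check, so the 17 cannot be read as particular to the members. In CFTR the far array was replicate 1 each time, higher than the other CFTR arrays: IDH1 at 2.01, MDH1 at 2.11, SDH4 at 2.23, QCR8 at 2.57 and ATP14 at 1.92. In vector it was replicate 3 each time, lower than the other vector arrays. These were the list means of the TCA cycle (1.83) and complex III (1.32), and the genes LSC1 (2.15), QCR9 (1.49), QCR10 (1.04), RIP1 (1.04), CYT1 (0.53), COX4 (1.79), COX7 (1.19), COX8 (1.54), COX12 (1.79) and HAP4 (-0.0564). CYC1 was not among them. These checks used the deposited scaling. With each array centred on its median, the TCA cycle mean deviation was -0.04 in vector replicate 3, above -0.23 and -0.29 in replicates 1 and 2. Complex III was still lower in vector replicate 3, at -0.45 against -0.10 and -0.18.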

How the results depend on the processing

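For CFTR minus vector the count of called members stayed at 0 of 44 in 18 of 20 alternatives. The exceptions were array weights, with 42 called and a median of -0.59, and the fit without vector replicate 3, with 5 (range 0 to 5 over single arrays left out). The median otherwise lay between -0.44, without CFTR replicate 1, and -0.21, with median centring. Single members changed sign in 5 cases: LSC2 to -0.048 with array weights, ACO1 to 0.0142 with vector replicates 5 to 7 (and 1 and 2) averaged, and FUM1 to 0.0192, COX9 to 0.0063 and ATP1 to 0.0206 with median centring. Against vector codes 11 to 14 the 23 members became 9 with near-copy arrays averaged (13.6% of all genes called, against 22.8%) and 8 to 36 with 1 array left out (8 without CFTR replicate 2, with 14.4% of all genes, and 36 without CFTR replicate 1, with 22.0%). Against vector codes 3 to 5 the 0 became 6, with 4 lower and 2 higher, without vector replicate 3, in a fit that called 66.6% of all genes, and stayed at 0 in the other alternatives run. Between the vector code ranges the 18 became 32 with median centring (39.5% of all genes, against 47.4%), 3 with near-copy arrays averaged (9.89%) and 10 to 17 with 1 array left out (10 without vector replicate 2 or 7, with 21.6% and 34.6%). With vector replicates 5 to 7 averaged to 1 sample, an alternative chosen after seeing the data, the 23 and the 18 both became 0 (4.22% and 1.67% of all genes). Over all genes, CFTR minus vector called 50, against 179 with quantile normalization, 173 with median centring, 3310 with array weights and 1 with near-copy arrays averaged. The causes were not tested. No paired analysis was possible because the labels give the CFTR samples no replicate numbers.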
